A study of Mus musculus with 2 samples.

Results

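The regions described here are the 464 intergenic distal sites of Zfp322a in E14 mouse embryonic stem (mES) cells. They were chosen by the reads themselves. Zfp322a reads whose mapping quality was 25 or more, which places a read at 1 position of the genome with confidence, were extended to 300 bp and piled up. A site was a stretch of at least 9 overlapping Zfp322a reads whose highest pileup was at least 3 times the highest IgG pileup. Its middle had to lie outside every annotated gene and over 3 kb from every transcription start site (TSS) of the mm9 annotation GENCODE vM1. They are 464 of 3875 such sites in the genome, or 12% (exact Clopper-Pearson 95% interval 11% to 13%). Most of the others touched a window around a TSS (2243, called TSS sites below) or lay with their middle in an intron (739). This window is the TSS class of the paper, which reaches further upstream of a start than downstream. A TSS site therefore need not contain the start itself.

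The study made 1 ChIP-seq library with an antibody against ZNF322 and 1 with rabbit IgG, both from E14 cells grown in serum and LIF. The labels name no mutation and no treatment of the cells, and give C57BL/6 as their background strain. With 1 library per antibody no difference between the antibodies can be set against replicate error. Heights and folds chose the sites, so they are given as a description.

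Zfp322a belongs to the C2H2 zinc finger proteins, the largest class of mammalian DNA-binding factors, whose fingers read short stretches of bases. Sites far from annotated starts can be enhancers, insulators where CTCF binds, promoters that an annotation lacks, or stretches that attract reads for other reasons. Enhancers act on genes at a distance, and the nearest gene is not always the gene served. A gene is therefore named below only to place a site.

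Of the 5 highest sites, 3 consisted of a short unit repeated head to tail. They are shown first because a reader can see the unit in the mm9 sequence, 5′ to 3′ on the plus strand, 150 bases around each summit, with capitals on the most frequent word of 12 bases.
Olfr281 site, chr15:98279059-98279208: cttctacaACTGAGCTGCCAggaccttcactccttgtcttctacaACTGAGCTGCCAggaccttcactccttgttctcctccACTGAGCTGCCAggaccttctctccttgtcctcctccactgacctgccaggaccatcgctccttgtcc
Gm10231 site, chr17:5763904-5764053: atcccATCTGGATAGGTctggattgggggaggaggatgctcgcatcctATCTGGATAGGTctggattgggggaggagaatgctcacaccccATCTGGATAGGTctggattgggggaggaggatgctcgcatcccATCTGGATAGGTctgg
Spint4 site, chr2:164530846-164530995: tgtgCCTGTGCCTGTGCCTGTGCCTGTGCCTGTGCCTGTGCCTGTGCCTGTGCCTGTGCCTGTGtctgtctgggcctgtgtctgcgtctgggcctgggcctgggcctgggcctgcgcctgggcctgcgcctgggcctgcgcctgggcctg

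The next sequences show the other kinds of high site, in the same orientation. The Ifitm3 site, the highest without a tandem repeat, has its CpG dinucleotides in capitals. The Gm15831 site was the highest with 3 matches of AGGCCT, the core word of the zinc finger factor Zfx, and these matches are in capitals. The Zfp639 site contains a RefSeq start and has its 23 CpG dinucleotides in capitals. For the site nearest to Nanog, a core pluripotency gene, a match of the CTCF word just left of the site is in capitals.
Ifitm3 site, chr7:148177208-148177357: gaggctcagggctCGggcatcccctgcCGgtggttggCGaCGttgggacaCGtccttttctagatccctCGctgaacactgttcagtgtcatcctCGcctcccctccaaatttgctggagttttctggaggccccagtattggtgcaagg
Gm15831 site, chr5:77565923-77566122: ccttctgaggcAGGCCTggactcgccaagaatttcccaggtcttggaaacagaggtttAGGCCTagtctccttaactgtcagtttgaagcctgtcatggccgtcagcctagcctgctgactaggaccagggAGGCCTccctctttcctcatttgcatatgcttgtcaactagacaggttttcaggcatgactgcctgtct
Zfp639 site, chr3:32409461-32409660: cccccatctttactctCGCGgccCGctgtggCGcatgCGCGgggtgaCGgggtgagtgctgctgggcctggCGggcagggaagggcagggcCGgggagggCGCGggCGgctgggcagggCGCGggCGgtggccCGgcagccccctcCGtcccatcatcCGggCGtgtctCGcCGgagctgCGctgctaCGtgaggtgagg
Nanog-side site, chr6:122619562-122619711: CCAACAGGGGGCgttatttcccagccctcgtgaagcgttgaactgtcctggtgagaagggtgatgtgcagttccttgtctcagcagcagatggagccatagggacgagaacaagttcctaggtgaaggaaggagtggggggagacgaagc

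Of such reads the Zfp322a library held 4151151 (80.0% of all) and the IgG library 3877802 (80.1%). Most intergenic distal sites were low at this depth. The Zfp322a peak height was exactly 9 reads at 228 sites, 10 at 93, 11 to 14 at 105 and 15 or more at 38. The median IgG height was 2 reads, 51 sites had none, and the median fold of heights was 4.50. Intron sites had a like profile, with 6.50% at 15 reads or more against 8.19% of the intergenic distal ones, while TSS sites reached 22.2%. Each height is a count of reads of 1 library, and counting error alone is wide at 9 reads.

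The rule cut through a dense part of the distribution. At 69 sites the heights were 9 Zfp322a and 3 IgG reads, and 85 sites had a fold of exactly 3. Just outside, 53 of the 371 intergenic distal stretches under 3-fold had 9 Zfp322a and 4 IgG reads. Over all 7404 stretches of at least 9 Zfp322a reads, 52.3% reached the fold, which the rule itself used.

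**Figure D1:**
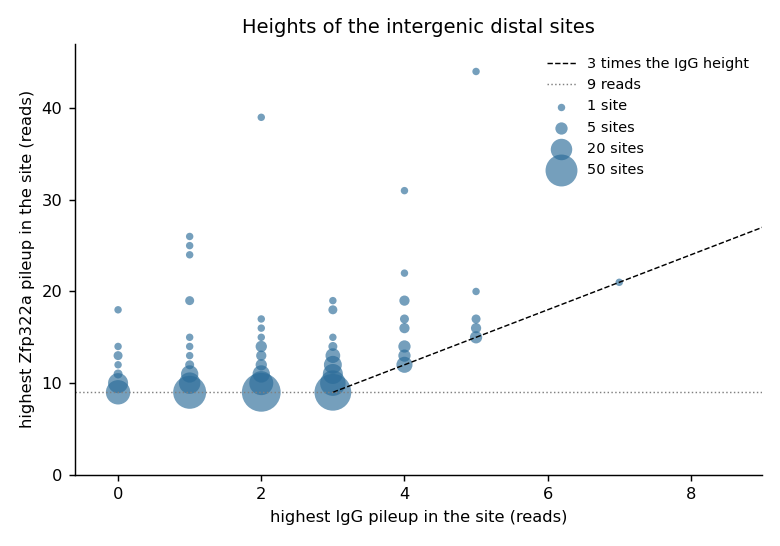
Highest pileup of Zfp322a reads (vertical axis) against that of IgG reads (horizontal axis) in each of the 464 intergenic distal sites; the area of a point grows with the number of sites at that pair of heights. Most sites lie at 9 to 15 Zfp322a and 0 to 4 IgG reads, just above the limits of the rule drawn as lines.

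With the libraries exchanged, so that IgG had to reach 9 reads and 3 times the Zfp322a height, 93 intergenic distal stretches qualified, and they are given beside the position and sequence of the sites. They made up 24.2% of the 384 exchanged sites. Of the 93, 26 lay on chromosome 8 alone, where Zfp322a reads stood to IgG reads at 0.760 of their ratio over the genome. On the X chromosome the same quotient was 1.32. Whether the libraries differ there in copy number was not tested.

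The highest intergenic distal site lies on chromosome 15 from 98278887 to 98279408, 7596 bp upstream of Olfr281, an olfactory receptor gene. Its heights were 44 Zfp322a and 5 IgG reads. Its unit repeats every 37 bases, with 97.0% of bases equal 1 unit apart over 100 bases. The site near the pseudogene Gm10231, between 5763775 and 5764138 of chromosome 17, reached 26 and 1 reads with a unit of 43 bases. The site 6925 bp past the start of Spint4, a Kunitz-type protease inhibitor gene, reached 25 and 1 reads between 164530743 and 164531109 of chromosome 2, with a unit of 6 bases. By the same measure, tandem repeats were found at 6 of the 464 sites, or 1.29% (95% interval 0.476% to 2.79%), against 1.85% of 470714 windows of 300 bp laid every 3000 bp across intergenic distal sequence. Windows weighted to the G+C content of the sites had them in 6.63%, those of them with an IgG read of high mapping quality in 3.89%, and the exchanged sites in 2.15%. They were thus less frequent than in windows of the same G+C content, but that reference was unstable. Its share depended on whether an IgG read was required, and only 62 windows stood for the 12 sites over 70% G+C. Sites also needed more reads placed with confidence than a read-bearing window did, and the effect of this on repeats was not tested. The shares of all windows and of the exchanged sites lay within the interval of the sites. Of the 6, 3 were among the 5 highest sites.

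The second highest site had heights of 39 Zfp322a and 2 IgG reads. It spans 148177019 to 148177523 of chromosome 7, 19398 bp past the start of Ifitm3, an interferon-induced membrane protein gene also known from early germ cells. The third, 8286 bp past the start of the pseudogene Gm8396 on chromosome 14, had heights of 31 and 4 reads. The site with 3 AGGCCT matches followed, spanning 77565824 to 77566230 of chromosome 5 at 24 and 1 reads, 14654 bp upstream of Gm15831. It also held an octamer word ATGCAAAT, read by Oct4 and other POU factors, and an AP-1 word TGANTCA, read by Fos and Jun.

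The remaining sites of the 15 highest ran from 22 to 19 Zfp322a reads. At Gm8619, a noncoding transcript on chromosome 13, the heights were 22 and 4 reads. Near Nfam1, which encodes an immune receptor with an activation motif, they were 20 and 5 reads. The site 23003 bp upstream of Ptma, the gene of prothymosin alpha, had 19 and 3 reads, and the site 26794 bp past the start of Stoml1, a stomatin-like gene, had 19 and 4. Beside a 5S_rRNA copy on chromosome 2 and beside Rps16-ps2, a ribosomal protein pseudogene on chromosome 5, the heights were 19 and 1 reads each. In these 15 sites the IgG height stayed between 1 and 7 reads.

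**Figure D2:**
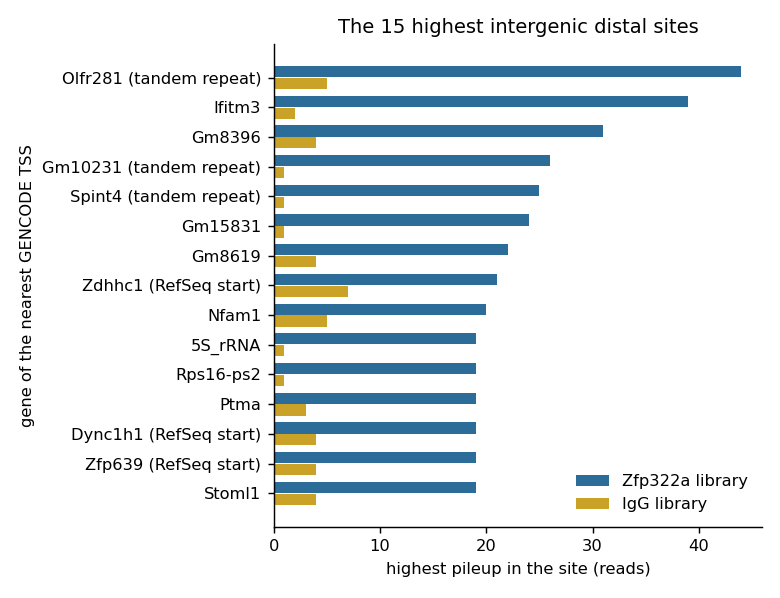
Highest pileup in reads (horizontal axis) of the Zfp322a and IgG libraries at the 15 highest intergenic distal sites, each named by the gene of its nearest GENCODE TSS, with tandem repeats and RefSeq starts within 1 kb marked. The bars run from 44 reads at Olfr281 to 19 at Stoml1, and 3 of the top 5 are tandem repeats.

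Another 3 of the 15 highest lay at gene starts that GENCODE vM1 does not list. RefSeq promoters (assembly GRCm38.p6, each 300 bases) were placed on mm9 by exact sequence, and 31833 of 32544 were found once. The Zfp639 site, between 32409264 and 32409769 of chromosome 3, reached 19 and 4 reads with its middle 2 bp from a RefSeq start of that zinc finger gene, 4701 bp upstream of the nearest GENCODE start. The Zdhhc1 site, with 21 and 7 reads on chromosome 8, lay 175 bp past a RefSeq start of this palmitoyltransferase gene. The site assigned to Dync1h1, the dynein heavy chain gene, had 19 and 4 reads and lay 105 bp past the start of the RefSeq gene B930059L03Rik.

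Of the 451 sites on chromosomes with RefSeq promoters, 46 (10.2%, 95% interval 7.56% to 13.4%) lay within 1 kb of a RefSeq start, against 0.828% of the windows. The promoter table is not complete: of 320 of these sites whose nearest GENCODE gene is protein-coding, 226 have that gene among the placed promoters, so the shares may be too low. The share was 25.2% among intron sites, and the intergenic distal share was lower by 15.0 percentage points (Newcombe 95% interval -19.1 to -10.7). In stretches under 3-fold the share was 10.2%, with an interval of the difference from -4.31 to 4.15 points. In the exchanged libraries it was 4.44% (4 of 90), with an interval from -1.13 to 9.90 points, so these data do not separate the sites from either. Among the 46 were starts of Hdac4, a histone deacetylase, with heights of 16 and 5 reads, of Rnf4, a SUMO-targeted ubiquitin ligase, with 13 and 3, and of Zfp873 with 13 and 4, named here after their values were seen. At sites on a RefSeq start the word intergenic holds only for GENCODE vM1.

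The sites lay closer to gene starts than intergenic sequence at large. The median distance to the nearest TSS was 14072 bp (quartiles 7643 and 28674 bp), against 51918 bp in the windows. It was 16441 bp in stretches under 3-fold and 20793 bp in the exchanged libraries. Over the 418 sites not within 1 kb of a placed RefSeq start it was 13914 bp. Between 3 and 10 kb lay 157 sites (33.8%, windows 13.5%), and over 50 kb lay 69 (14.9%, windows 51.0%). The nearest TSS belonged to a protein-coding gene at 329 sites, and 280 sites lay upstream of it. In 22 pairs of neighbours the starts were under 10 kb apart, so that 42 sites had such a neighbour.

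Sites were spread unevenly over the chromosomes. Chromosome 11 held 37 sites, 7.97% of the total against 3.57% of the windows. Chromosome 17 held 34 (7.33% against 3.50%) and chromosome 9 held 38 (8.19% against 4.38%). The X chromosome held 8 sites, 1.72% against 7.27% of the windows. On chromosome 14 there were 7 sites, 1.51% against 4.89%. The number of reads also differed between chromosomes in both libraries, and the windows were not weighted by it. Chromosome 11 had 285024 Zfp322a and 248550 IgG reads, chromosome 17 had 179486 and 160738, and chromosome 9 had 258182 and 210237. The X chromosome had 110216 and 78061, and chromosome 14 had 128600 and 119212. The number of reads per chromosome differed between the libraries too. Its part in these shares was not tested.

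**Figure D3:**
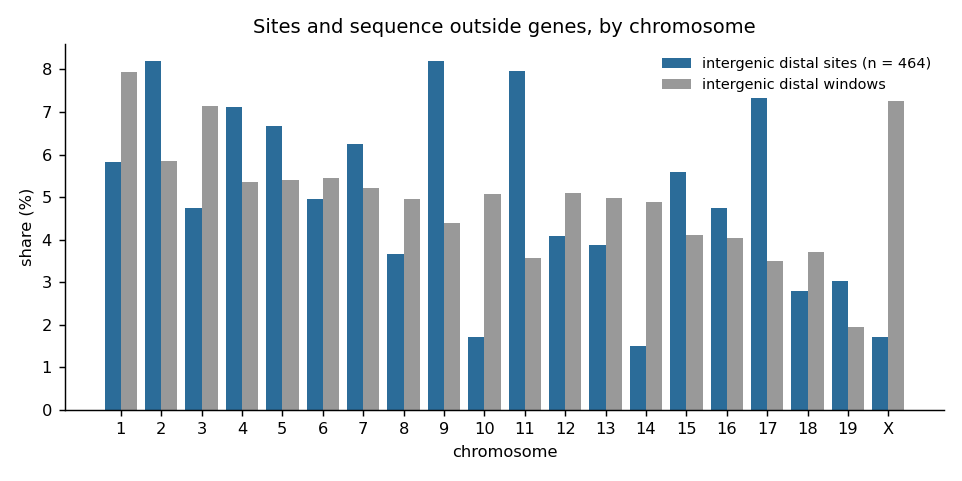
Share in percent (vertical axis) of the 464 intergenic distal sites and of intergenic distal windows on each chromosome (horizontal axis). Chromosomes 9, 11 and 17 hold more sites than their share of windows and chromosomes 10, 14 and X fewer.

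The sequence was not used by the rule. In 300 bp around the summit the median G+C content was 55.3% (quartiles 52.6% and 59.3%), against 40.7% in the windows. Intron sites had 56.7%, TSS sites 64.3% and the exchanged libraries 53.7%, so a high G+C content was common to every set of high pileups, whichever library it came from. CpG-rich sequence, defined as at least 50% G+C and a CpG ratio of observed to expected of at least 0.6, was found at 72 sites (15.5%, 95% interval 12.3% to 19.1%), and 20 of these lay within 1 kb of a RefSeq start. It was found at 0.403% of all windows, 11% of windows weighted to the G+C content of the sites and 9.03% of those of them that held an IgG read of high mapping quality. The exchanged sites had it in 7.53% and the TSS sites in 78.5%. Intron sites had it in 21.9%, and the intergenic distal share was lower by 6.40 points (Newcombe 95% interval -10.7 to -1.84). The intergenic distal share was lower than that of stretches under 3-fold, 21.6%, by 6.05 points (Newcombe 95% interval -11.4 to -0.768).

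AGGCCT, a palindrome that reads the same on both strands and is the core of the Zfx word, was the most frequent of the named words. It was found in 300 bp at 125 of the 464 sites, or 26.9% (95% interval 23.0% to 31.2%). Windows of any composition had it in 6.82%. Windows weighted to the G+C content of the sites had it in 13.1%, and those of them that held an IgG read of high mapping quality in 16.6%. In the exchanged libraries 7 of 93 had it (7.53%), and the difference was 19.4 points (Newcombe 95% interval 11.3 to 25.1). The share in stretches under 3-fold was 20.2%, lower by 6.72 points (0.901 to 12.4). Intron sites with 26.3% and TSS sites with 22.8% had shares whose difference to the intergenic distal one could be 0 (intervals -4.36 to 5.89 and -0.116 to 8.65 points), so the word was not particular to intergenic distal sites.

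Of the 12 palindromes of 4 G or C and 2 A or T without a CpG, AGGCCT had the highest ratio to windows of the same G+C content that held an IgG read, 1.62. CTGCAG was about as frequent at the sites (26.5%), but windows had it in 24.4% and the exchanged libraries in 25.8%. TGGCCA, with the outer pair exchanged, was found at 14.7% of the sites and 14.7% of those windows. At 36 sites there were 2 or more AGGCCT matches and at 11 there were 3 or more. By height the share was 22.4% at 9 reads, 25.8% at 10, 37.1% at 11 to 14 and 28.9% at 15 or more, with overlapping 95% intervals.

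The AGGCCT matches gathered at the summits. Within 50 bp of the summit there were 16.2 matches per 100 sites, from 50 to 100 bp 12.1, and from 300 to 350 bp 6.03. Stretches under 3-fold went from 10.8 to 4.85 between the first and the last of these bins, and intron sites had 14.3 in the first, so the gathering was not particular to the sites. In the exchanged libraries the bins held 1 to 4 matches each, from 1.08 to 4.30 per 100 sites. The G+C content fell over the same distance, from 57.9% to 50.2% at the sites and from 54.1% to 49.5% in the exchanged libraries, and its part in the gathering was not tested.

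CTCF, the factor of insulators and loop anchors, was searched on both strands with the core letters of its known word. It was found at 41 sites (8.84%, 95% interval 6.42% to 11.8%), against 2.86% of the read-bearing windows of the same G+C content. The share was 5.14% in intron sites, lower by 3.69 points (Newcombe 95% interval 0.785 to 6.93), and 3.57% in TSS sites, lower by 5.27 points (2.86 to 8.28). It was thus more frequent at intergenic distal sites than in intron and TSS sites. Stretches under 3-fold, however, had 9.70%, with an interval of the difference from -4.98 to 3.06 points, so the data show no higher share where Zfp322a exceeded IgG 3-fold. The 3 matches in 93 exchanged sites (3.23%) are too few to tell them from the sites (interval -0.644 to 9.23 points). These matches also gathered at the summit, with 23 within 50 bp and 2 between 300 and 350 bp. Further out there were 7 from 400 to 450 bp and 6 from 450 to 500 bp. Stretches under 3-fold had 17 within 50 bp and 0 between 300 and 350 bp, so this gathering was not particular to the sites.

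Of the other words the E-box CACGTG, read by Myc, was found at 10.1% of the sites (95% interval 7.54% to 13.2%) and 5.90% of the read-bearing windows. Intron sites with 8.93%, TSS sites with 10.7% and exchanged sites with 6.45% had shares whose difference to it could be 0 (the last with an interval from -3.65 to 8.31 points). The KLF word GGGNGTGG of the Krüppel-like factors was found at 19.8% against 17.4%. For AP-1 the shares were 9.27% and 7.46%, and for the GC box GGGGCGGG of the Sp factors 5.82% and 5.63%. The ETS word CCGGAAG was found at 5.17% of the sites and 17.9% of the TSS sites. All windows of the same G+C content had it in 5.11% and the read-bearing ones in 2.75%. The NRF1 word was found at 1.51% of the sites (95% interval 0.609% to 3.08%), 0.740% of the read-bearing windows and 8.78% of the TSS sites. Of the words of pluripotency factors, the octamer was found at 5 sites (1.08%, read-bearing windows 0.726%), the Oct4-Sox2 element at 2 (0.431%, windows 0.103%) and the Esrrb word TCAAGGTCA at 4 (0.862%, windows 0.713%). The 95% interval of the sites held the window share for the octamer, for Oct4-Sox2 and for Esrrb. The YY1 word AANATGGCG was found at 3 sites (0.647%), 1.64% of the read-bearing windows and 5.53% of TSS sites. All windows of the same G+C content had it in 7.59%. Exchanged sites had it in 4.30%, with an interval of the difference from -9.91 to -0.761 points. A match is a description of letters and no proof of binding.

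**Figure D4:**
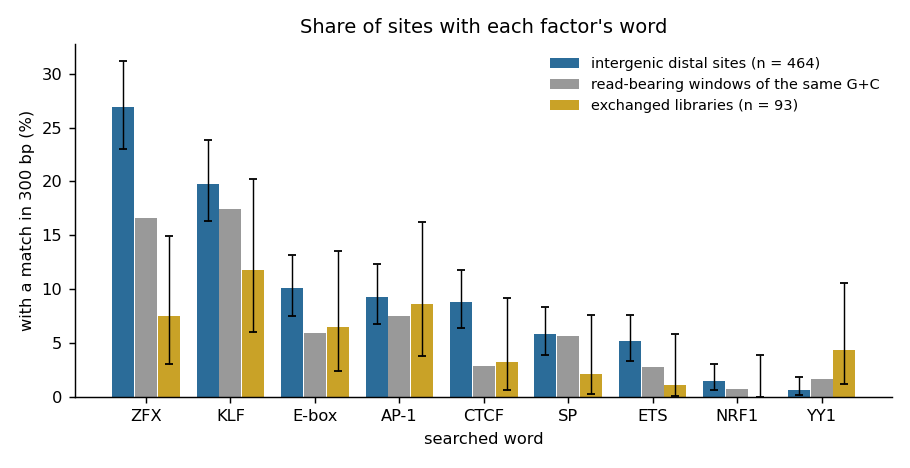
Percent of regions with at least 1 match in 300 bp (vertical axis) for 9 searched words (horizontal axis), in the 464 intergenic distal sites, in windows of the same G+C content that hold an IgG read, and in the 93 sites of the exchanged libraries; error bars are exact 95% intervals. ZFX stands at 26.9% against 16.6% and 7.53%, and CTCF at 8.84% against 2.86% and 3.23%.

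**Figure D5:**
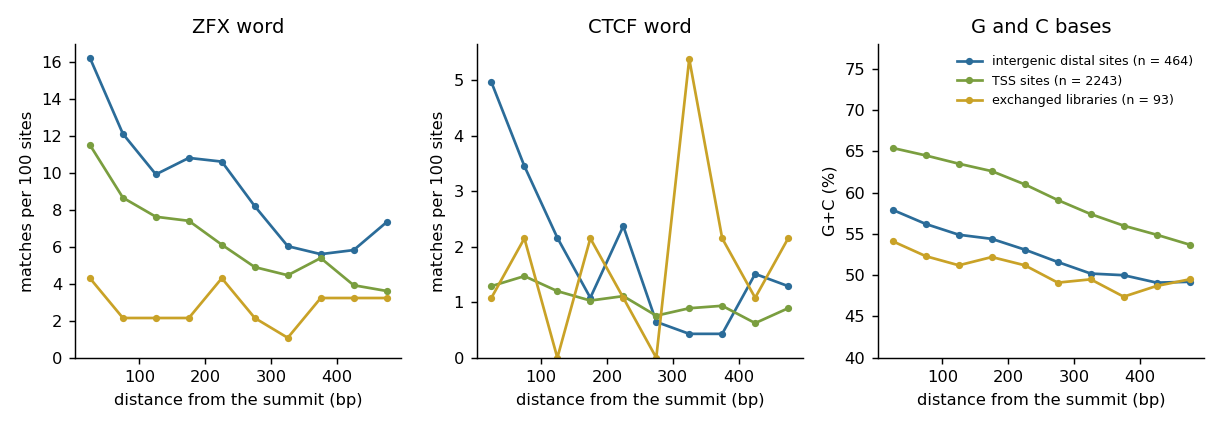
Matches per 100 sites of the ZFX and CTCF words and G+C content in percent (vertical axes) in bins of 50 bp by distance from the summit (horizontal axes) for intergenic distal, TSS and exchanged sites. ZFX matches fall from 16.2 to 6.03 per 100 intergenic distal sites between the first bin and 300 to 350 bp, and the exchanged line stays at 4.30 or below.

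The sites with the most different words were named by rule. The site near Anp32e, between 95754975 and 95755274 of chromosome 3, held 5 of them, KLF, SP, CRE, ETS and ZFX, and had heights of 12 and 4 reads. The sites near Gm15831, Zfp395, Gm15411 and Ccdc97 held 4 each, and 2 lower sites that also held 4, near Smurf1 and Srcrb4d, fell outside the 5 by height. Not all of these are words of a named factor. The 4 at Ccdc97 were ETS, AP-1 and simple repeats of CA and of GA. Those at Gm15831 and Gm15411 include 1 word read from a picture of the study's motifs. Of the 5, all but the Ccdc97 site had the AGGCCT word.

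Forward reads should lie left of reverse reads around a bound point, and this order was tested in each stretch with a one-sided exact Mann-Whitney test, Benjamini-Hochberg adjusted over all stretches. The rule extends reads by strand, so forward reads over a summit start on its left and reverse reads on its right. The random order that the test takes as its reference thus does not hold in chosen stretches. The test is only partly independent of the rule, and its p-values are a description. Of 460 sites with enough reads, 8 passed an adjusted p of 0.05, or 1.74% (95% interval 0.754% to 3.40%), beside 1.30% of all stretches. The share at the sites was near that background. The median shift between the strands was 149 bp. Among the 8 were Olfr281 with a shift of 201 bp, Gm15831 with 166 bp and Ifitm3 with 134 bp. The others were Gm8396, Gm10231, SNORA48, Ythdf2 and a 7SK copy. With an unadjusted p, 182 sites (39.6%) were under 0.05, beside 33.9% of all stretches and 48.4% of the exchanged sites. With reads within 300 bp of the summit alone, 21 sites (4.57%) passed after adjustment, beside 3.14% of all stretches. That window keeps the very reads that the extension lays over the summit, forward ones on its left and reverse ones on its right.

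Reads over 500 bp from a site did not choose that site, but the flanks were not cleared of other sites. Some flanks thus hold reads that chose a neighbour, and reads in overlapping flanks were counted for each site. Between 500 and 5000 bp from the edges the Zfp322a library had 17067 reads and the IgG library 13935. Per read of each library this was 1.14 times as many (exact conditional binomial 95% interval 1.12 to 1.17, counting error only). The ratio was 1.22 around intron sites, 1.21 around TSS sites, 0.857 around stretches under 3-fold and 0.777 around exchanged sites. It was thus above 1 around the sites of each class, and below 1 around exchanged sites and stretches under 3-fold. In the stretches under 3-fold themselves the median fold of heights was 1.80. All these sets had been chosen by the same libraries, and the part of that choice in the ratios was not tested. With the total of each chromosome in place of the genome the ratio was 1.13 at the intergenic distal sites.

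The authors deposited regions of their own, with 754 distinct intervals. These are fewer than the 3875 sites that the criteria give here, so a site without overlap may still be in a fuller list of the authors, which was not used here. Of the 464 sites 9 overlapped one (1.94%, 95% interval 0.891% to 3.65%), against 11.2% of intron sites and 25.3% of TSS sites. Among sites of at least 15 reads the overlap was 4 of 38 for intergenic distal and 293 of 499 for TSS sites. Of the 15 highest, the Zfp639 site alone overlapped. Others were at Rnf4, at its RefSeq start, a pair at Pde4a, a phosphodiesterase gene, and sites at Kdm5b, Tpst1, Eif4g2 and 2410075B13Rik. Of the 9, 5 were CpG-rich.

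Genes of pluripotency, of lineage choice and of the MAPK pathway were looked up within 50 kb of the sites. Pluripotency genes such as Nanog and Pou5f1 keep mES cells undifferentiated, lineage genes mark their exit, and MAPK/ERK signalling promotes that exit. Over all 22202 protein-coding genes, 3.77% had an intergenic distal site within 50 kb of a TSS. In the pluripotency list it was 5 of 39 genes found in the annotation (12.8%, 95% interval 4.30% to 27.4%), in the lineage list 2 of 38 (5.26%, 0.644% to 17.7%) and in the MAPK list 3 of 29 (10.3%, 2.19% to 27.4%). The lists are small, and Nanog and Dppa3 share 1 site.

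That site lies on chromosome 6 from 122619577 to 122619717, 37860 bp upstream of the Nanog start and 42876 bp past the start of Dppa3. Its heights were 10 Zfp322a and 1 IgG reads. The CTCF match shown above lies just left of the site, within the 300 bp searched around its summit. These 300 bp hold no AGGCCT. The site near Pou5f1, the gene of Oct4, had heights of 9 and 2 reads, lay 33920 bp past its start and 204 bp past a RefSeq start of Cdsn, a gene of cornified skin. Near Trim28, which encodes the corepressor of KRAB zinc finger proteins, a site with 10 Zfp322a reads and no IgG read lay 9737 bp upstream. Near Fgf4, a growth factor gene of mES cells, a site with 10 and 2 reads lay 25769 bp past the start. The 300 bp searched around its summit held 1 AGGCCT match.

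Of the lineage genes, Cdx2, the trophectoderm factor, had a site with 10 and 1 reads 13949 bp past its start. Gata2, a factor of blood and trophoblast cells, had a site with 9 and 2 reads 37479 bp past its start, and a second with 9 and 3 reads lay beyond it. The MAPK genes were Dusp6 and Dusp5, phosphatases that switch off ERK, and Mapk14, the p38 kinase. Their sites had heights of 9 and 1, 9 and 3, and 9 and 3 reads. None of the sites near listed genes exceeded 10 Zfp322a reads or overlapped a deposited region.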

How the data were processed

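Chromatin of E14 cells was immunoprecipitated with anti-ZNF322 antibody or IgG, 1 library each; with 1 library per antibody, intervals cover counting error only. The authors sequenced 36-base reads and deposited the mapped reads (mm9; the submitters' processing notes name BWA, CASAVA 1.4 and Partek 6.6) with a mapping quality score per read, as well as the positions of reads in their regions. The score is the deposited mapping quality and was used only as a minimum of 25.

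Sites, heights and folds were computed from the reads as described with the results, using pysam 0.24.0, scipy 1.17.1, pandas 2.3.3 and numpy 2.4.6 under Python 3.11.15. An IgG height of 0 was taken as 1, and stretches were joined over gaps of at most 300 bp. The procedure was tried on simulated reads of chromosome 1, with sites planted among reads placed at random. That background had no G+C bias and no repeats, so it cannot judge the sites described here. Words were searched on both strands in 300 bp around the summit, overlaps allowed, and windows were weighted by classes of 2 points of G+C. A tandem repeat had at least 85% equal bases 1 lag apart over 100 bases, for lags of 2 to 100. RefSeq promoters were matched to mm9 by sequence, with no conversion of coordinates, and chromosomes without them were left out of those shares.

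The members, gene lists and words were chosen with earlier results of these data known. Named sites were the 15 highest, the 5 with the most different words, and those within 50 kb of a listed gene. A pair of words read from a picture of the study's motifs counted among the different words and is not reported, as its letters are uncertain. The strand test had been planned as independent of the rule, which holds only in part. Alternatives changed heights, folds, extension, joining, mapping quality, TSS distance, annotation, windows and offsets.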

Additional observations from a re-analysis of the deposited data

Results flagged for a closer look

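Reads with a mapping quality under 25 were left out of the rule, and the Zfp322a library had more of them in the intergenic distal sites. There were 119 Zfp322a and 32 IgG reads, or 3.47 times as many per such read of each library (exact conditional binomial 95% interval 2.33 to 5.29, counting error only). With 300 bp on each side of the sites the ratio was 1.82 (interval 1.46 to 2.28). The reads fell in 27 and 14 sites. The 3 high tandem repeats at Olfr281, Gm10231 and Spint4 held 64 of the Zfp322a and 8 of the IgG reads, and without any of the 6 tandem repeats the ratio was 2.06 (interval 1.25 to 3.49). The ratio was 4.77 in intron sites, 3.24 in TSS sites, 0.980 in stretches under 3-fold and 0.892 in the exchanged sites. These reads were counted inside regions that other reads of the same libraries had chosen. The ratio is therefore not independent of the rule and is a description.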

How the results depend on the processing

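The number of intergenic distal sites depended on the criteria, as the 464 sites lay close to the limits. It was 822 at 8 reads, 166 at 11 and 45 at 15, where stretches were called anew at each height. It was 207 at a fold of 5 and 148 at a fold of 9. With reads extended to 150 or 200 bp it was 147 and 248, and 843 without joining. With all reads, whatever their mapping quality, it was 1121, and at distances of over 10 and 50 kb from a TSS it was 307 and 69. With IgG scaled by library totals it was 376, and with protein-coding genes only 550. The strand order passed at 8 sites, at 21 with reads within 300 bp of the summit (4.57%, all stretches 3.14%), and at 182 with an unadjusted p (39.6%, all stretches 33.9%). The AGGCCT share was 26.9% in 300 bp, 19.4% in the sites themselves and 17.7% in 150 bp, shorter stretches that hold fewer words. Of 45 alternatives 25 left the value within 1.5 times, within its interval or on its side of 1, and 20 moved it further. Only the read ratios had a direction that could turn, and none of them turned. Windows holding an IgG read, RefSeq starts, tandem repeats, other palindromes, chromosome offsets and exchanged libraries were chosen after seeing the data. No paired analysis was possible because each antibody has 1 library.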
